A study of Rattus norvegicus with 16 samples.

Results

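The genes described here encode subunits of the transcription factor NF-kB and the proteins that its activity induces to restrain or extend it. They were taken by symbol from a proposed set of 10 genes, namely Nfkb1, Nfkb2, Rela, Relb, Nfkbia, Nfkbie, Nfkbiz, Tnfaip3, Bcl3 and Tifa, and 7 of them were found among the 17055 gene symbols of the count tables. Nfkb1, Relb and Tnfaip3 were not analysed here. The rule uses symbols and no measured value, but the proposed set itself was chosen with earlier results of these data known. The RNA came from whole liver of male Sprague-Dawley rats aged 10 weeks, 12 in each of 4 groups, and each of the 16 libraries was a pool of 3 rats, with 4 libraries in a group. Isoflurane-Sepsis rats (libraries 1 to 4) underwent cecal ligation and puncture, in which the cecum is tied and pierced so that gut contents enter the abdomen, and isoflurane control rats (libraries 5 to 8) underwent sham surgery. Both of these groups were induced and maintained with isoflurane, a volatile anesthetic. Propofol-Sepsis rats (libraries 9 to 12) and propofol control rats (libraries 13 to 16) underwent the same procedures after induction with ketamine and xylazine and under an infusion of propofol, an intravenous anesthetic. All 4 groups, controls included, were ventilated with oxygen, had the abdomen opened and stayed anesthetized for 8 h until the liver was taken, so no group shows liver without anesthesia or surgery.

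NF-kB is a dimer of Rel-family subunits that is held in the cytoplasm by IkB proteins. Bacterial products and cytokines such as tumor necrosis factor activate the IkB kinase complex, which marks IkB for destruction and frees the dimer to enter the nucleus. Among the genes it then induces are those of its own inhibitors, and this negative feedback shapes the response over time. In liver the pathway is active in Kupffer cells, endothelial cells and infiltrating leukocytes as well as in hepatocytes, where it contributes to the acute-phase response and to protection from cell death.

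The promoters of these genes are shown first, because members induced through this feedback are known to carry kappaB sites. RefSeq promoter windows (assembly GRCr8, 300 bases, from 250 before to 50 after the gene start) were matched for all 7 genes, and both strands were searched for the NF-kB consensus motif of 10 letters. The motif was found in 6 of the 7 windows (85.7%), beside 2515 of all 33469 RefSeq windows (7.51%). Because the genes were chosen as parts of this pathway, the share describes them and is not a test. Among the 8016 windows of genes tested for sepsis against control under both anesthetics the share was 9.87%. It was not found in the Rela window. The 60 bases around each match are printed 5′ to 3′ on the strand of the gene, with the match in capitals.
Nfkb2, chr1:255108329-255108388, plus strand: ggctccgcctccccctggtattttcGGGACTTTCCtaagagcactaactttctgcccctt
Nfkbia, chr6:78597069-78597128, minus strand: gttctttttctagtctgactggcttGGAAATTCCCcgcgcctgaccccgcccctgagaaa
Nfkbie, chr9:22948002-22948061, minus strand: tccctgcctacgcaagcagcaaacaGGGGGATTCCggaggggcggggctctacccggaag
Nfkbiz, chr11:58251683-58251742, plus strand: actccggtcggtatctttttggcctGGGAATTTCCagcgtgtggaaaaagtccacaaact
Bcl3, chr1:88613559-88613618, minus strand: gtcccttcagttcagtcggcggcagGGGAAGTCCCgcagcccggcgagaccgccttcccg
Tifa, chr2:218932847-218932906, plus strand: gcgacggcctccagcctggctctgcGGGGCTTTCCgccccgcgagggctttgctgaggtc

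The match in Nfkbia is on the strand opposite to the gene, where it reads GGGAATTTCC, the same letters as the match in Nfkbiz. The Bcl3 match reads as the motif on both strands. In 5 of the 6 windows the match ended within the last 30 bases before the annotated start, from base -29 in Bcl3 to base -4 in Nfkbiz, and in Nfkbie it ended at base -155. A second motif that immune promoters often hold, the STAT-type TTCNNNGAA, was found in 0 of the 7 windows. It was in 8.87% of all windows and in 6.76% of those of genes tested under both anesthetics, so 7 windows are too few to show an absence. These are matches of letters in a short window and no binding was measured.

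**Figure D1:**
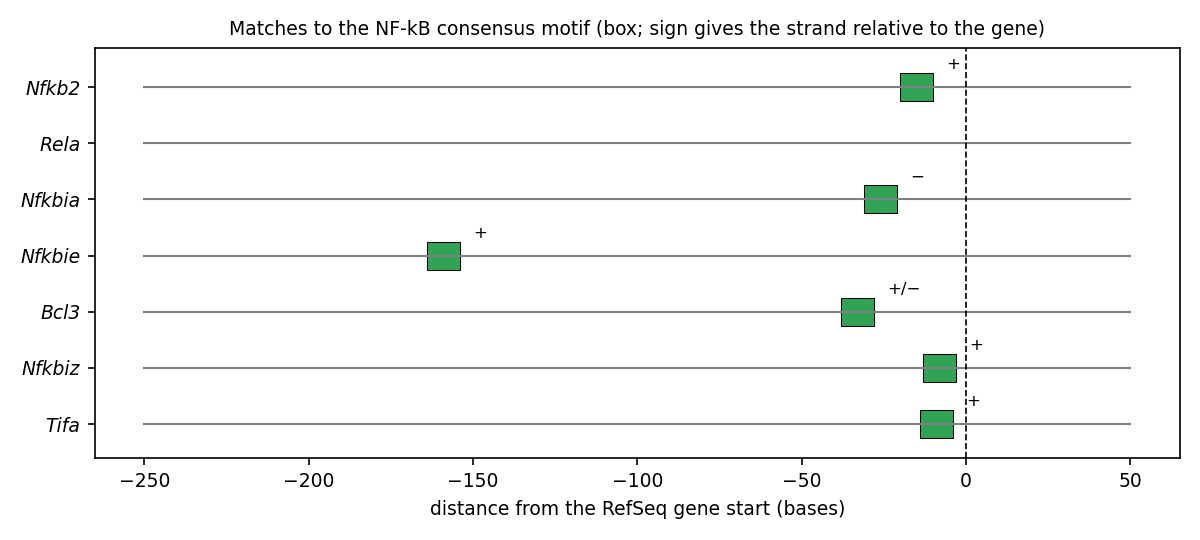
Position of each match to the NF-kB consensus motif (green box) along the 300-base RefSeq window of the 7 genes, as distance in bases from the annotated gene start (dashed line); the sign beside a box gives its strand relative to the gene. The boxes of 5 genes lie within 38 bases before the start, that of Nfkbie begins at base -164, and Rela has none.

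The libraries held 14199422 to 49937173 reads on genes, and each of the 7 genes had at least 46 reads in every library. Levels are given as CPM, the reads of a gene scaled to a common library size, and were computed after TMM scaling, which corrects library totals for differences in composition. Reads outside annotated genes took 23.13% to 25.39% of the total in the Isoflurane-Sepsis libraries and 21.61% to 23.26% in the other libraries. Because each library is a pool, the errors given below are those of pools, and the spread of single rats is unknown. In bulk tissue a change in the number of cells of a type and a change in RNA per cell cannot be told apart.

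Sepsis raised the mRNA of 5 of the 7 genes under both anesthetics. Tifa, Nfkb2, Nfkbia, Nfkbie and Rela rose (edgeR quasi-likelihood test, Benjamini-Hochberg adjusted p below 0.05 over all genes), and neither Nfkbiz nor Bcl3 passed the test in either comparison. No gene of the set fell. Under isoflurane 25.7% of the 10361 genes tested rose and 24.4% fell with sepsis, and under propofol 20.4% of 10348 rose and 21.7% fell. The median log2 fold change of the 7 genes was 1.10 under isoflurane and 0.81 under propofol, beside medians over all genes of 0.006 and -0.002.

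**Figure D2:**
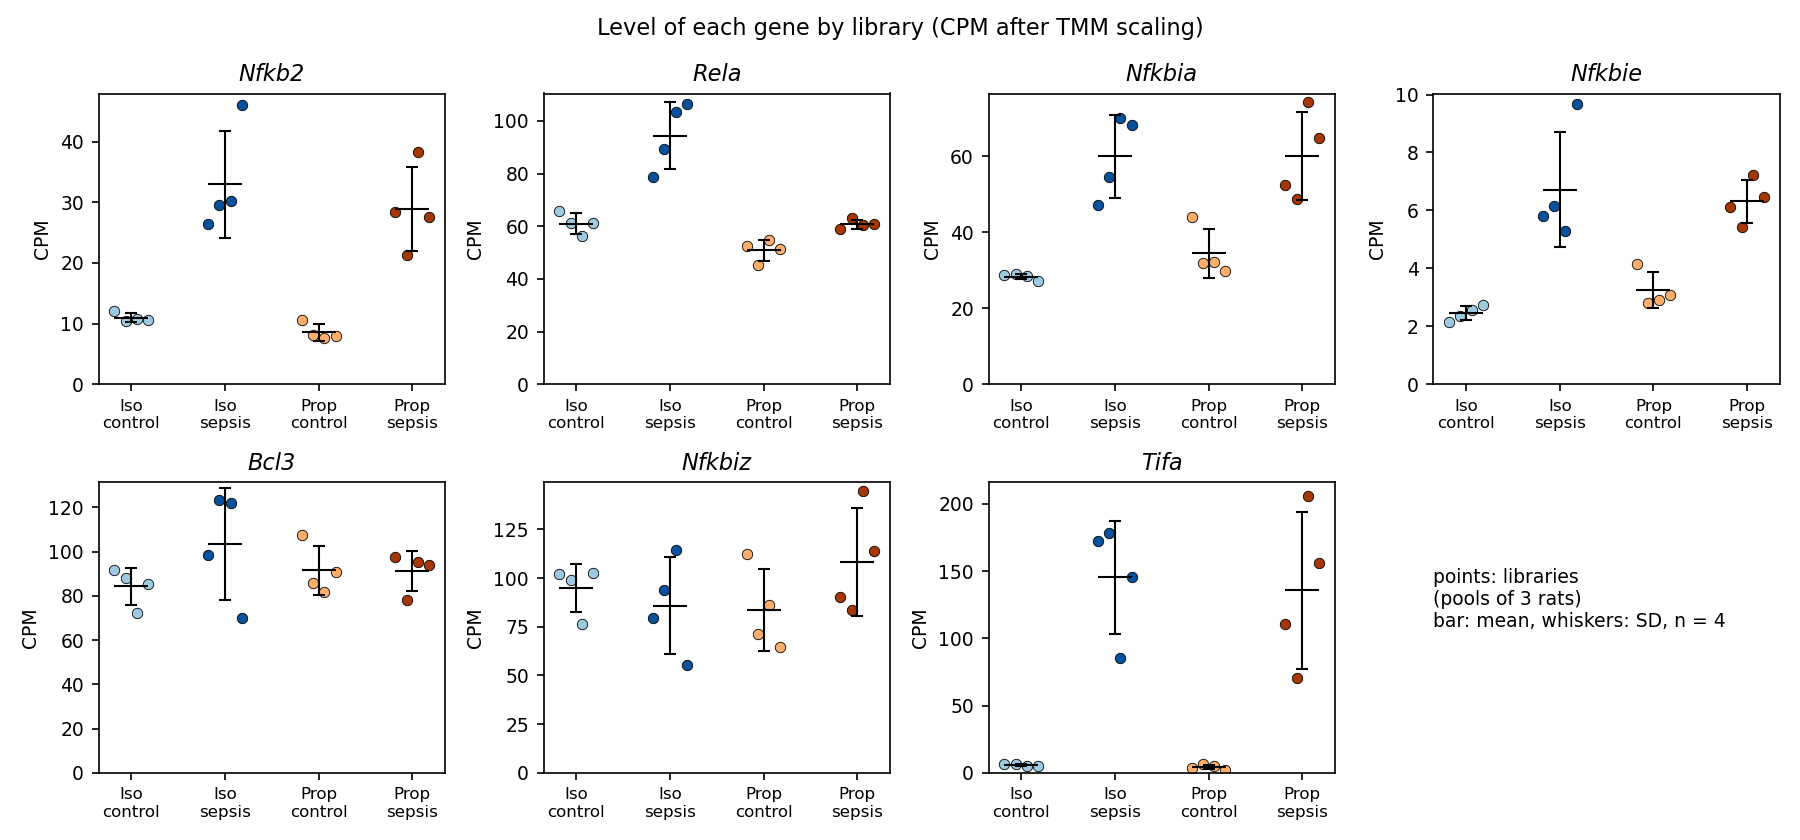
CPM of each of the 7 genes (vertical axis, from 0) in the 16 libraries by group; points are libraries, the bar is the mean and the whiskers are the SD (n = 4). The sepsis libraries of Nfkb2, Rela, Nfkbia, Nfkbie and Tifa all lie above the controls of the same anesthetic, whereas those of Bcl3 and Nfkbiz overlap them. The share of all genes without such overlap was not computed.

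Of the subunits, Nfkb2 encodes p100, which restrains NF-kB in its full-length form and is processed to the DNA-binding subunit p52. Nfkb2 was measured at 26.4, 29.5, 30.2 and 46.0 CPM in the Isoflurane-Sepsis libraries and at 12.1, 10.4, 10.7 and 10.7 CPM in their controls. In the Propofol-Sepsis libraries it was at 28.4, 21.4, 38.2 and 27.5 CPM, and in their controls at 10.6, 8.17, 7.57 and 7.92 CPM. The lowest sepsis library under each anesthetic was above every control, and library 4 stood highest. The increase was 3.05-fold under isoflurane (log2 fold change 1.61, SE 0.176, adjusted p = 0.000209) and 3.38-fold under propofol (1.76, SE 0.172, adjusted p = 9.41e-05).

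Rela encodes p65, the subunit that carries the main transactivating activity of NF-kB. It was measured at 78.8, 89.2, 103 and 106 CPM in the Isoflurane-Sepsis libraries, and at 65.6, 61.1, 56.2 and 61.2 CPM in the isoflurane controls. The Propofol-Sepsis libraries were at 58.8, 63.0, 60.4 and 60.7 CPM, and the propofol controls at 52.3, 45.2, 54.7 and 51.3 CPM. Neither pair of groups overlapped, but the Propofol-Sepsis libraries lay within the range of the isoflurane controls. The mean of 60.7 CPM ± 1.72 (SD, n = 4) in Propofol-Sepsis and that of 61.0 CPM ± 3.87 (SD, n = 4) in isoflurane control differed by less than either spread. Rela rose 1.57-fold under isoflurane (log2 fold change 0.65, SE 0.112, adjusted p = 0.00172) and 1.20-fold under propofol (0.26, SE 0.0674, adjusted p = 0.0123), the smallest increases among the 5 genes that rose.

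Nfkbia encodes IkBα, the inhibitor that is rapidly resynthesized after NF-kB activation. It was measured at 47.3, 54.6, 70.2 and 68.2 CPM in Isoflurane-Sepsis and at 28.7, 29.0, 28.5 and 27.3 CPM in isoflurane control. Propofol-Sepsis libraries were at 52.6, 48.8, 74.2 and 64.8 CPM and propofol controls at 44.1, 31.8, 32.2 and 29.8 CPM. Sepsis libraries and controls did not overlap, although library 13, a propofol control, reached 44.1 CPM where the lowest Propofol-Sepsis library had 48.8. Nfkbia rose 2.15-fold under isoflurane (log2 fold change 1.10, SE 0.133, adjusted p = 0.000329) and 1.75-fold under propofol (0.81, SE 0.151, adjusted p = 0.00235). Both sepsis groups reached a mean of 60.1 CPM, with coefficients of variation of 18.2% and 19.3%.

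Nfkbie encodes IkBε, a cytoplasmic inhibitor that NF-kB also induces. It was measured at 5.80, 6.14, 5.28 and 9.66 CPM in Isoflurane-Sepsis and at 2.17, 2.36, 2.57 and 2.75 CPM in isoflurane control. The Propofol-Sepsis values were 6.13, 5.43, 7.21 and 6.48 CPM, and the propofol controls were at 4.15, 2.80, 2.92 and 3.09 CPM. Every sepsis library again exceeded every control of its anesthetic, and library 4 was the highest, as it was for Nfkb2. The increase was 2.74-fold under isoflurane (log2 fold change 1.45, SE 0.206, adjusted p = 0.000669) and 1.96-fold under propofol (0.97, SE 0.154, adjusted p = 0.000968). Control libraries had between 46 and 131 Nfkbie reads.

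Bcl3 and Nfkbiz encode nuclear members of the IkB family, which modulate transcription with p50 or p52 dimers and do not hold NF-kB in the cytoplasm. Bcl3 was measured at 98.5, 123, 122 and 69.9 CPM in Isoflurane-Sepsis and at 91.8, 88.0, 72.2 and 85.1 CPM in isoflurane control. In Propofol-Sepsis it was at 97.4, 77.9, 95.3 and 94.0 CPM and in propofol control at 107, 86.0, 81.8 and 91.0 CPM. The groups overlapped under both anesthetics, and library 4 was below every isoflurane control while the other Isoflurane-Sepsis libraries were above them. The log2 fold change was 0.31 under isoflurane (95% interval -0.07 to 0.69, edgeR adjusted p = 0.156) and -0.0032 under propofol (-0.22 to 0.21, adjusted p = 0.983). Without library 4 it was 0.46 under isoflurane, with an edgeR adjusted p of 0.0107.

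Nfkbiz encodes IkBζ, which is needed for a subset of NF-kB target genes. It was measured at 79.4, 94.1, 114 and 55.2 CPM in Isoflurane-Sepsis and at 102, 99.1, 76.5 and 103 CPM in isoflurane control. In Propofol-Sepsis it was at 90.4, 83.8, 145 and 114 CPM and in propofol control at 112, 71.5, 86.1 and 64.7 CPM. Sepsis and control values were interleaved, with library 4 lowest and library 11 highest of all 16. The log2 fold change was -0.13 under isoflurane (95% interval -0.59 to 0.32, edgeR adjusted p = 0.613) and 0.37 under propofol (-0.07 to 0.82, adjusted p = 0.152). Without library 13, the propofol control at 112 CPM, it was 0.55 with an edgeR adjusted p of 0.0460, and without library 4 it was 0.03 under isoflurane. Both promoters hold the NF-kB consensus motif, as do those of 4 of the 5 genes that rose.

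Tifa encodes an adaptor with a forkhead-associated domain that links bacterial sugar sensing by the kinase ALPK1 to TRAF6 and so to NF-kB, and it acts upstream of the other genes described. Tifa was measured at 172, 178, 85.5 and 145 CPM in Isoflurane-Sepsis and at 6.64, 6.20, 5.28 and 5.04 CPM in isoflurane control. It was at 110, 70.3, 206 and 156 CPM in Propofol-Sepsis and at 3.44, 6.19, 4.70 and 2.32 CPM in propofol control. The sepsis libraries differed among themselves by up to 206 against 70.3 CPM, and even the lowest of them was far above the highest control. The increase was 25.4-fold under isoflurane (log2 fold change 4.67, SE 0.241, adjusted p = 1.05e-05) and 32.7-fold under propofol (5.03, SE 0.385, adjusted p = 3.35e-05). By log2 fold change Tifa stood at rank 18 of 10361 genes under isoflurane and at rank 8 of 10348 under propofol. The kinase gene Alpk1 was not analysed here.

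**Figure D3:**
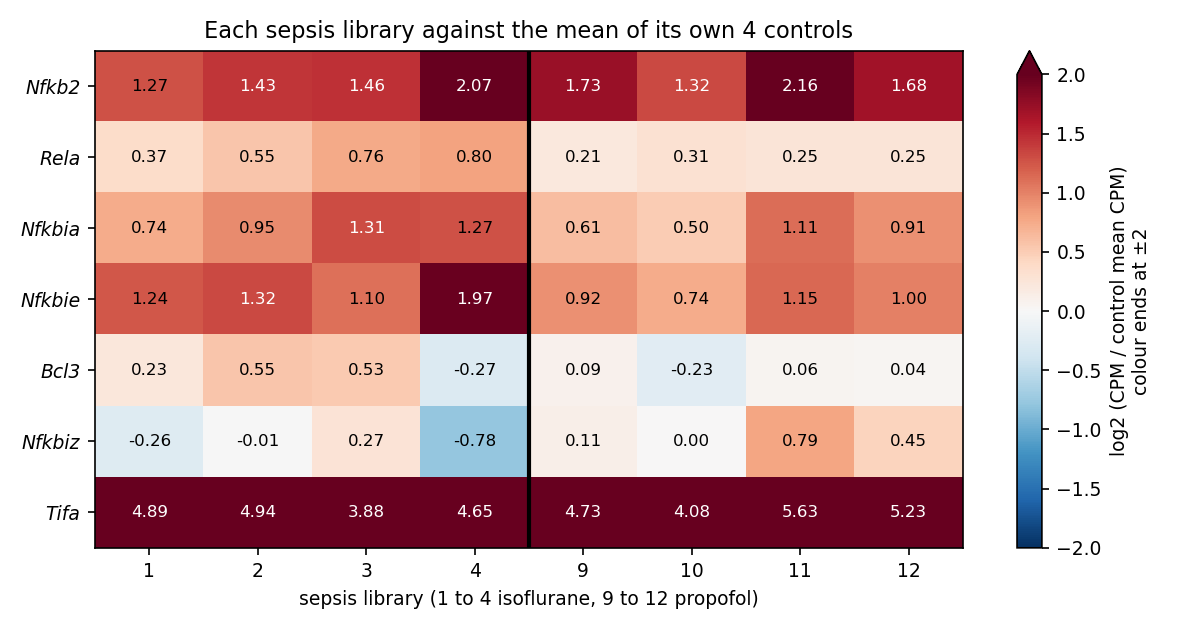
Log2 ratio of each sepsis library to the mean CPM of the 4 controls of its own anesthetic, for the 7 genes (rows) in libraries 1 to 4 (isoflurane) and 9 to 12 (propofol); red is higher, blue is lower, and the color scale ends at 2 on either side. All 8 libraries are above their control mean for Nfkb2, Rela, Nfkbia, Nfkbie and Tifa, and library 4 combines the highest isoflurane values of Nfkb2 (2.07) and Nfkbie (1.97) with the lowest of Nfkbiz (-0.78) and Bcl3 (-0.27).

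The single libraries did not rank alike across genes. In library 4 Nfkb2 was 4.19-fold and Nfkbie 3.92-fold of the isoflurane control mean, and Nfkbiz was at 0.581 of it. In library 3 Nfkbia was at its highest under isoflurane, at 2.47-fold of the control mean, whereas Tifa was at its lowest, at 14.8-fold. In library 11 Nfkb2 (4.46-fold), Nfkbia (2.15-fold), Nfkbie (2.22-fold), Nfkbiz (1.73-fold) and Tifa (49.5-fold) each stood highest of the Propofol-Sepsis libraries, and in library 10 all 5 of these genes stood lowest.

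Whether the response to sepsis differed between the anesthetics was asked of an interaction term fitted to the 16 libraries, that is the log2 fold change under isoflurane minus that under propofol. The anesthetic cannot be told apart here from the induction drugs, which differed between the isoflurane and the propofol rats. The test called 0 of the 7 genes (edgeR, adjusted p below 0.05), and it called 2.72% of the 10621 genes tested. DESeq2 and limma-voom also called 0. At an unadjusted p below 0.05 each of the 3 tools found 1 gene, Rela. Its response was larger under isoflurane by 0.38 on the log2 scale (95% interval 0.10 to 0.66, edgeR adjusted p = 0.107). Without library 1, the Isoflurane-Sepsis library with the lowest Rela level, the difference was 0.46 with an edgeR adjusted p of 0.0166, and over all alternatives tried the adjusted p ran from that value to 0.191.

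For the other genes the intervals of the difference were wide. They ran from -0.71 to 0.40 for Nfkb2, from -0.16 to 0.73 for Nfkbia and from -0.08 to 1.04 for Nfkbie. For Bcl3 the interval was -0.13 to 0.73, for Nfkbiz -1.16 to 0.13 and for Tifa -1.34 to 0.62. Each includes 0, and with 4 pools per group differences within these limits were not excluded.

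**Figure D4:**
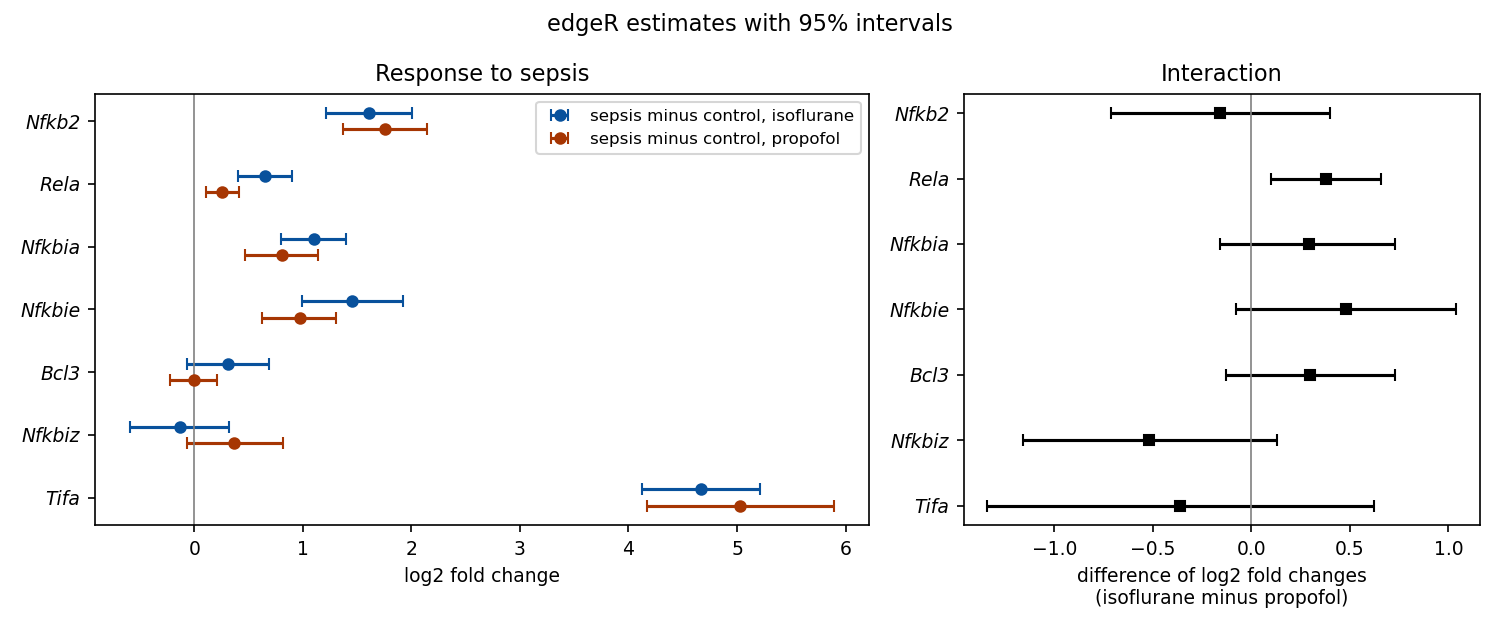
Left, log2 fold change of sepsis against control under isoflurane (blue) and propofol (brown); right, the interaction, as the isoflurane minus the propofol log2 fold change. Points are edgeR estimates and bars are 95% intervals; Tifa lies at 4.67 and 5.03, and in the interaction the interval of Rela, 0.10 to 0.66, is the one that does not include 0.

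The anesthetics were also compared directly, which orders the 4 groups for each gene. In these comparisons, as in the interaction, the anesthetic cannot be told apart from the induction drugs. Nor can it be told apart from a code in the names of the deposited counts, which differs between the isoflurane and the propofol libraries. The meaning of that code is not given in the sources used here. In control liver 2 of the 7 genes differed, where 43.3% of the 10314 genes tested did. Rela was 1.20-fold higher in isoflurane control (log2 difference 0.27, SE 0.0681, edgeR adjusted p = 0.00923) and Nfkb2 was 1.29-fold higher (0.37, SE 0.109, adjusted p = 0.0194). The control groups did not overlap for Rela but did for Nfkb2, where propofol control library 13 was above isoflurane control library 6. Nfkbia and Nfkbie were at log2 differences of -0.27 and -0.36, with edgeR adjusted p of 0.0607 and 0.0701, although all 4 isoflurane controls lay below all 4 propofol controls for both genes. How many of all genes separate the controls in this way was not computed.

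These control differences depended on scaling. With library totals in place of TMM the median over all genes moved to -0.146, the log2 differences of Rela and Nfkb2 to 0.12 and 0.22, and those of Nfkbia and Nfkbie to -0.42 and -0.51. In that setting the 2 genes called were Nfkbia (edgeR adjusted p = 0.0103) and Nfkbie (0.0167), while Rela (0.184) and Nfkb2 (0.134) were not. Without library 5, Nfkb2 had an edgeR adjusted p of 0.0584, and without library 16 of 0.0509.

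In septic liver 1 of the 7 genes differed between the anesthetics, where 19.3% of the 10272 genes tested did. Rela was 1.56-fold higher in Isoflurane-Sepsis than in Propofol-Sepsis (log2 difference 0.64, SE 0.109, edgeR adjusted p = 0.0117), and the lowest Isoflurane-Sepsis library, at 78.8 CPM, was above the highest Propofol-Sepsis library, at 63.0 CPM. For Nfkb2, Nfkbia, Nfkbie and Tifa the log2 differences were 0.21, 0.01, 0.10 and 0.11, with 95% intervals of -0.27 to 0.69, -0.36 to 0.38, -0.36 to 0.56 and -0.62 to 0.84. For these 4 genes both sepsis groups had higher means than both control groups. In Tifa, for example, the means were 145 CPM ± 42.3 (SD, n = 4) in Isoflurane-Sepsis, 136 ± 58.5 in Propofol-Sepsis, 5.79 ± 0.756 in isoflurane control and 4.16 ± 1.66 in propofol control. The step between Propofol-Sepsis and isoflurane control exceeded the spread, and neither the upper nor the lower pair differed by more than its larger SD. In Nfkb2 and Nfkbie the control means differed by 2.39 and 0.780 CPM, more than the larger SDs of 1.40 and 0.618, with isoflurane control the higher for Nfkb2 and the lower for Nfkbie. For Rela the order was 94.4, 61.0, 60.7 and 50.9 CPM, in which the middle pair, isoflurane control and Propofol-Sepsis, did not differ beyond their spread. For Bcl3 and Nfkbiz no neighboring groups in the order differed by more than the larger of their SDs.

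The rest of the pathway was described with 5 lists of 65 genes, of which 56 were in the tables. Of the 53 tested under isoflurane 30 rose and 6 fell, with a median log2 fold change of 0.38, and of the 51 tested under propofol 27 rose and 5 fell, with a median of 0.26. Over all genes tested 25.7% rose and 24.4% fell under isoflurane, and 20.4% rose and 21.7% fell under propofol. The list with the largest median was that of textbook target genes of NF-kB. Of these 14 of 18 rose and 0 fell under isoflurane (median 2.07), and 10 of 17 rose and 2, Plau and Csf1, fell under propofol (median 0.65). Il6 had enough reads to be tested under isoflurane (log2 fold change 5.40) but not under propofol, so these counts and medians are of different sets of genes.

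Among the targets Sod2, the mitochondrial superoxide dismutase, rose from 187 CPM ± 23.7 (SD, n = 4) to 1322 ± 211 under isoflurane (log2 fold change 2.84, edgeR adjusted p = 1.04e-05) and from 234 ± 76.5 to 1245 ± 187 under propofol (2.42, adjusted p = 5.21e-05). Il1b, which encodes the cytokine interleukin-1β, rose from 3.53 CPM ± 0.536 to 44.8 ± 19.7 under isoflurane (3.70, edgeR adjusted p = 7.28e-05) and from 6.08 ± 1.75 to 30.9 ± 3.35 under propofol (2.36, adjusted p = 2.52e-05). Its interaction was not called (1.34, edgeR adjusted p = 0.0623), and its controls already differed (log2 difference -0.80, isoflurane against propofol, edgeR adjusted p = 0.00807). Cxcl2, a neutrophil-attracting chemokine, rose to 15.9 CPM ± 3.14 and 4.39 ± 0.690 from controls that had 4 to 10 and 1 to 2 reads per library, so its fold change is poorly determined. In the interaction 4 of 18 targets were called, where 2.72% of the 10621 genes tested were. Each of the 4 had a positive difference (isoflurane minus propofol log2 fold change), and they are named here after their values were seen. In this term, too, the anesthetic cannot be told apart from the induction drugs. Tnf (difference 2.12, edgeR adjusted p = 0.0403) and Bcl2a1 (1.32, 0.0249) rose under both anesthetics, with log2 fold changes of 4.04 and 2.50 under isoflurane and 1.90 and 1.18 under propofol. Plau (difference 1.37, edgeR adjusted p = 0.0106) and Csf1 (0.95, 0.0403) fell under propofol, at -1.23 and -1.27, and were at 0.15 and -0.31 under isoflurane, where neither passed the test.

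**Figure D5:**
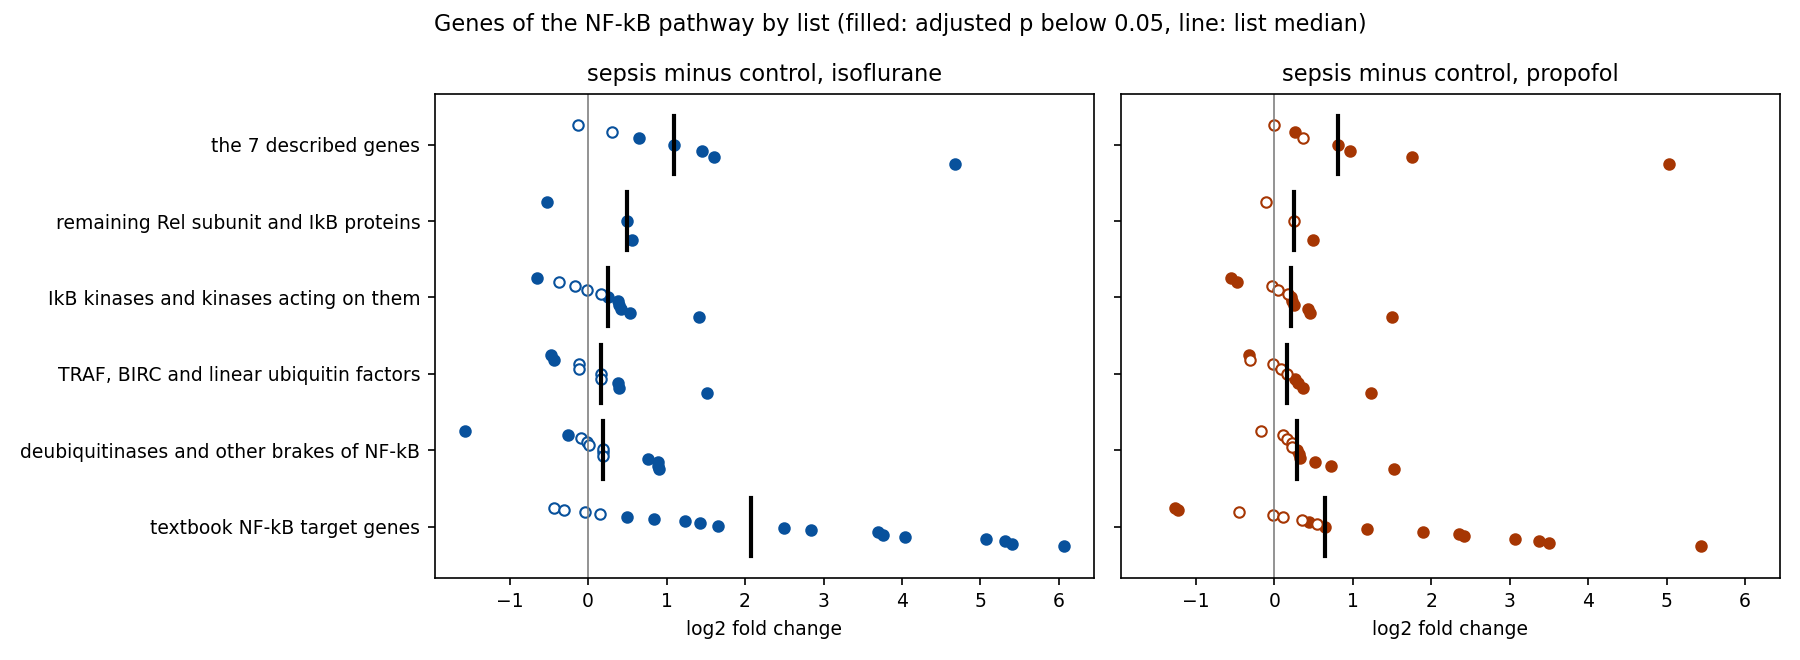
Log2 fold change of sepsis against control for each tested gene (points) of the 7 described genes and of 5 pathway lists, under isoflurane (left) and propofol (right); filled points have an adjusted p below 0.05 and the black line is the list median. The target genes reach the largest values and have medians of 2.07 and 0.65, the first with Il6 included and the second without it. The medians of the other 4 lists lie between 0.16 and 0.50.

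Lists of genes that act before NF-kB had smaller medians. Of 11 IkB kinases and kinases acting on them 6 rose and 1 fell under isoflurane, and 6 rose and 2 fell under propofol, with medians of 0.25 and 0.21. The shares over all genes were 25.7% up and 24.4% down under isoflurane, and 20.4% and 21.7% under propofol. Map3k8, a kinase released from p105 on stimulation, rose 2.66-fold under isoflurane (log2 fold change 1.41, edgeR adjusted p = 6.71e-05) and 2.82-fold under propofol (1.50, adjusted p = 0.00102). Ikbkb, the catalytic subunit IKKβ, rose 1.34-fold and 1.18-fold (edgeR adjusted p = 0.00281 and 0.0141), and Ripk1, a kinase of the tumor necrosis factor receptor complex, 1.32-fold and 1.35-fold (0.00714 and 0.000814).

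In the list of TRAF, BIRC and linear ubiquitin factors 3 of 9 rose and 2 fell under isoflurane, and 4 rose and 1 fell under propofol. Beside these stand the shares over all genes, 25.7% up and 24.4% down under isoflurane and 20.4% and 21.7% under propofol. Birc3, a ubiquitin ligase that is itself an NF-kB target, rose 2.84-fold and 2.34-fold (edgeR adjusted p = 0.000815 and 0.000373). Rbck1, a subunit of the linear ubiquitin ligase, fell by 0.43 on the log2 scale under isoflurane (edgeR adjusted p = 0.00125) and fell by 0.32 under propofol (0.00358).

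Other brakes of the pathway included 5 of 12 that rose and 2 that fell under isoflurane, and 6 of 11 that rose and 0 that fell under propofol, with medians of 0.19 and 0.29. Here, too, the shares over all genes were 25.7% up and 24.4% down under isoflurane, and 20.4% and 21.7% under propofol. Pdlim2, which fell under isoflurane (log2 fold change -1.57), was not tested under propofol. Zc3h12a, a ribonuclease that degrades inflammatory mRNAs, rose 1.85-fold under isoflurane and 2.90-fold under propofol (edgeR adjusted p = 0.000222 and 0.000168). Its interaction was not called (-0.65, edgeR adjusted p = 0.0901). Between the controls it was higher under isoflurane, at 14.6 against 11.1 CPM (edgeR adjusted p = 0.00460). Tnip1, an adaptor that works with A20, rose 1.70-fold and 1.65-fold (edgeR adjusted p = 0.00232 and 0.000101). Of the 3 remaining IkB proteins and NF-kB-associated factors 2 rose and 1, Nkap, fell under isoflurane, and 1 rose and 0 fell under propofol. Nfkbib, which encodes IkBβ, rose 1.48-fold and 1.40-fold (edgeR adjusted p = 0.00093 and 0.0104). Nfkbil1 rose 1.42-fold under isoflurane (adjusted p = 0.00359) and was at 1.19-fold under propofol (adjusted p = 0.239).

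Markers of several cell types moved in the same comparisons. The shares over all genes tested were 25.7% up and 24.4% down under isoflurane, and 20.4% up and 21.7% down under propofol. Of 10 tested neutrophil and monocyte markers 7 rose and 0 fell under isoflurane, and 6 rose and 0 fell under propofol. Their sum over 12 genes was 168, 235, 404 and 453 CPM in libraries 1 to 4, against 49.6 to 58.3 CPM in their controls, and it was 138, 167, 130 and 107 CPM in libraries 9 to 12, against 43.9 to 65.5 CPM. None of the 12 was at 0 in a whole group. Rela stood in the same order as this sum in libraries 1 to 4, at 78.8, 89.2, 103 and 106 CPM. In libraries 9 to 12, where Rela was at 58.8, 63.0, 60.4 and 60.7 CPM, the orders differed. Both were highest in library 10, but Rela was lowest in library 9 and the sum was lowest in library 12. Nfkb2 and Nfkbie were highest in library 4 under isoflurane, which had the highest sum, and in library 11 under propofol, which did not. Nfkbia was highest in libraries 3 and 11 and Tifa in libraries 2 and 11, none of which had the highest sum of its group.

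Beside the marker counts of the other cell types stand the same shares over all genes. These were 25.7% up and 24.4% down under isoflurane, and 20.4% and 21.7% under propofol. Kupffer cell and macrophage markers rose in 6 of 10 and fell in 1 under isoflurane, and rose in 2 and fell in 1 under propofol, and their sums of 473 to 633 and 449 to 554 CPM in sepsis overlapped the 417 to 513 and 487 to 548 CPM of the controls. Of 10 hepatocyte markers 0 rose and 4 fell under isoflurane, and 0 rose and 3 fell under propofol. The hepatocyte sum was 117816 to 126404 CPM in Isoflurane-Sepsis and 141541 to 152687 in isoflurane control, which did not overlap, and 96915 to 106225 in Propofol-Sepsis and 105820 to 117683 in propofol control, which did. Of 9 endothelial markers 0 rose and 5 fell under isoflurane, and 2 rose and 2 fell under propofol. The endothelial sum was 155 to 182 CPM in Isoflurane-Sepsis against 209 to 252 in isoflurane control, and 204 to 215 in Propofol-Sepsis against 236 to 274 in propofol control, with no overlap under either anesthetic. Of 4 tested lymphocyte markers 3 rose and 0 fell under isoflurane, and 0 rose and 1 fell under propofol, with Klrb1 at 0 reads in every library of the isoflurane groups. The lymphocyte sum was 16.6 to 25.2 CPM in Isoflurane-Sepsis against 14.8 to 17.7 in isoflurane control, and 14.1 to 16.5 in Propofol-Sepsis against 17.0 to 20.1 in propofol control. Stellate cell and cholangiocyte markers rose in 4 of 8 and fell in 1 under isoflurane, and rose in 0 and fell in 1 under propofol, and their sums in sepsis (130 to 169 and 127 to 170 CPM) overlapped those of the controls (128 to 140 and 137 to 144 CPM). The part of these cells in the changes of the NF-kB genes was not tested.

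Finally, the genes whose pattern over the 16 libraries was most like that of each gene were listed by the root mean square difference of log2 CPM, after centering each gene on its own mean. For Tifa the nearest genes were Ptx3, which encodes the soluble pattern-recognition protein pentraxin 3, at a difference of 0.472, Reg3a, which encodes a secreted lectin, at 0.559 and Havcr1 at 0.739. For Nfkb2 they were Rhbdf2 (0.205), Jak2, a kinase of cytokine receptors (0.222), and Lbp, the lipopolysaccharide-binding protein (0.234). For Rela they were Flii, Itgb1 and Ywhaz, between 0.0928 and 0.0968. Nfkbia was nearest to Slc15a3, Sbno2 and Rcn1 (0.182 to 0.194), and Nfkbie to Sla, Cd38 and Fcer1g (0.184 to 0.206). Bcl3 was nearest to Rps18, Gas5 and Wdr70 (0.136 to 0.141), and Nfkbiz to Peli1, Dhrsx and MGC114492 (0.242 to 0.261). The differences are on a log2 scale and are larger for genes that vary more, so they are comparable only within one gene's list.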

How the data were processed

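Liver mRNA was measured by stranded, single-end RNA sequencing of polyadenylated RNA in 16 libraries, each pooled from 3 rats. The authors deposited raw read counts per gene symbol for each library, without normalization. The submitters' processing notes name STAR and the genome build rn5, with a counting program and an annotation not given in the sources used here. Entries for reads outside genes (21.61% to 25.39% of reads) and ambiguous reads (1.074% to 1.351%) were left out of totals and tests. Groups were taken from the sample labels. The genes and all gene lists were chosen with earlier results of these data known.

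Counts were tested with edgeR 4.0.16 (R 4.3.3) by the quasi-likelihood F test after filterByExpr (minimum count 10, minimum total 15) and TMM scaling. Each comparison was fitted on its own 8 libraries and the interaction on all 16. P values were adjusted by Benjamini-Hochberg over all genes tested, and genes were called at an adjusted p below 0.05. DESeq2 (1.42.0), the tool of the study, served as an alternative, and so did limma-voom (limma 3.58.1), RLE factors, library totals, no filter, a minimum mean CPM of 1, a single fit of all 16 libraries, a threshold of 0.01, and the omission of single libraries. The edgeR script was tested on simulated counts. Named pathway genes are the 2 with the smallest p of each list in each sepsis comparison, and like patterns are the 3 nearest genes (log2 CPM with a prior count of 2). Pairs of libraries of the same group differed by more than sampling noise (chi-square per degree of freedom 3.351 to 96.35). Intervals are at 95%. The labels do not say how rats were assigned to pools, so p-values measure the spread between these pools. Promoter sequences are from RefSeq (GRCr8), not from the build of the counts.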

Additional observations from a re-analysis of the deposited data

Results flagged for a closer look

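A library was set apart from the other 3 of its group when its gap to the nearest of them exceeded 0.829 of the group's whole range (Dixon's 95% limit for 4 samples). The 7 genes and 6 marker sums were tested in 4 groups, which made 52 tests, and chance alone marks about 1 in 20 of them. In isoflurane control, library 5 had 12.1 CPM of Nfkb2, where the others had 10.4 to 10.7, and library 7 had 76.5 CPM of Nfkbiz, where the others had 99.1 to 103. Library 7 also stood apart in the sum of lymphocyte markers, at 17.7 CPM against 14.8 to 15.3, and in the sum of endothelial markers, at 252 CPM against 209 to 212. In Propofol-Sepsis, library 11 had a hepatocyte marker sum of 96915 CPM, where the others had 104781 to 106225, and it was the library with the highest Tifa and Nfkbiz. Without library 5 the higher Nfkb2 of isoflurane control liver no longer passed the test (edgeR adjusted p = 0.0584).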

How the results depend on the processing

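No paired analysis was possible because the labels number the libraries 1 to 16 and the groups share no replicate number. The increases of Tifa, Nfkb2, Nfkbia, Nfkbie and Rela with sepsis kept their direction and their call at 0.05 under all 15 alternatives of each anesthetic, and at 0.01 the count under propofol was 4, without Rela. Of 574 values recomputed for the 7 genes, 542 kept direction and call, 9 gained a call, 5 lost one and 18 changed sign. In the interaction the count was 0 to 1 when single libraries were left out, the 1 being Rela without library 1. In control liver the count of 2 became 1 at 0.01 and 1 with all 16 libraries in 1 fit, where Nfkb2 had an edgeR adjusted p of 0.172, and it was 1 to 3 when single libraries were left out: 1 without library 5, while Nfkbiz joined without library 13 and Tifa without library 14, and Nfkbia took the place of Nfkb2 without library 16. DESeq2 called 3 genes there. In septic liver the count of 1 became 0 at 0.01.

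Changes of sign were all in values that no test called. Under propofol the log2 fold change of Bcl3 was 0.0027 with RLE factors, 0.0028 with DESeq2, 0.0007 with limma-voom, 0.0031 with all libraries in 1 fit and -0.06 to 0.08 with single libraries left out (0.06 without library 10, 0.08 without library 13). With single libraries left out Nfkbiz under isoflurane ran from -0.31 to 0.03 (the last without library 4), and the interaction of Nfkb2 from -0.37 to 0.0037 (the last without library 11). In septic liver library totals, which moved the median of all genes to -0.156, gave -0.14 for Nfkbia, -0.05 for Nfkbie and -0.03 for Tifa. There the omission of single libraries gave -0.07 to 0.12 for Nfkbia (-0.07 without 3, 4 or 10, -0.05 without 9), -0.01 to 0.36 for Nfkb2 and -0.14 to 0.20 for Nfkbie (lowest without 4 in both) and -0.10 to 0.38 for Tifa (lowest without 10). Ikbkb under propofol lost its call with library totals (edgeR adjusted p = 0.0552). The cause of these changes was not tested.

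Counts over all genes moved by more than 1.5 times in some settings. At 0.01 the calls fell from 5183 to 3200 under isoflurane, from 4353 to 2628 under propofol, from 289 to 9 in the interaction, from 4468 to 2815 in control liver and from 1982 to 121 in septic liver. The interaction gave 847 with DESeq2 and 168 without a filter, and 1 fit of all libraries gave 2793 in control liver and 4099 in septic liver.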

Other observations

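The NF-kB consensus motif was also counted in the RefSeq windows of other genes, as a description. It was in 141 of 1186 windows (11.9%) of genes called higher with sepsis under both anesthetics, in 8.20% of 1232 windows of genes called lower under both and in 9.59% of 2930 windows of genes called in neither. Of the textbook NF-kB targets 7 of 20 windows (35.0%) held it. In the kinase list it was in 2 of 8 windows, in the TRAF, BIRC and linear ubiquitin list in 1 of 5, in the list of other brakes in 2 of 10, and in the remaining IkB and associated genes in 0 of 2. The STAT-type motif was in 5.99%, 7.55% and 6.42% of the windows of genes called higher, lower and in neither comparison.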
